A study of Saccharomyces cerevisiae with 4 samples.

Results

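The 55 genes described here encode the ribosomal stalk proteins (RPP0, RPP1A, RPP1B, RPP2A and RPP2B) and the cytoplasmic large subunit proteins from RPL1A to RPL27B of Saccharomyces cerevisiae, out of 6207 genes on the arrays. They were chosen by name, and all 55 had a ratio on each of the 4 arrays, a coverage reached by 47.1% of all genes. RPL22B, listed as YFL034C-A, was found under an older systematic name, YFL035C-B, which RefSeq pairs with it. Each array compared, with 2 dyes, RNA of a mid2 mutant in the BY4741 background kept for 2 h with 15 ng/ml caspofungin and RNA of the untreated part of the same mutant culture, both grown at 24 °C on rich medium. Both sides of every ratio therefore carry the mid2 mutation, and no wild-type strain enters these ratios. MID2 encodes a membrane protein that senses stress on the wall. Caspofungin is an echinocandin, a drug that inhibits the synthase of beta-1,3-glucan in the wall. RNA came from 2 cultures, each hybridised with the dyes both ways round. The caspofungin RNA carried Cy5 on arrays 2 and 4 and Cy3 on arrays 1 and 3.

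The large subunit holds the peptidyl transferase centre, where amino acids are joined, and the tunnel through which the new chain leaves. Its stalk, built of RPP0 and of pairs of the acidic proteins P1 and P2, draws the elongation factors to the ribosome. Most yeast ribosomal protein genes exist as a pair of copies kept since a genome duplication. In many pairs the copies encode identical or nearly identical proteins. The genes are among the most strongly transcribed in growing yeast. They are known as a regulon driven by Rap1, Fhl1 and Ifh1 under the TOR kinase, and their transcripts are known to drop together in many acute stresses.

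The values are log2 ratios as the authors deposited them, in which 0 means equal signal of both RNAs. Neither the labels nor the values state which way the ratios run. A positive ratio is read here as higher with caspofungin, a likely direction that rests on the title of the series and on the sign shared by both dye orientations at HSP12, a stress gene, whose ratios were 3.14 and 4.08 on arrays 2 and 4, while arrays 1 and 3 gave 4.73 and 3.63. Of 5 general stress markers 4 had 4 values, and 3 of these, HSP12, HSP26 and TFS1, were positive on all arrays. DDR48 instead alternated with the dyes, with -0.19 and -0.47 on arrays 2 and 4, while arrays 1 and 3 gave 1.22 and 1.53. CTT1 was blank. A shared sign does not settle the direction, since the control row 3XSSC was also positive on every array. That row had 0.10 and 0.44 on arrays 2 and 4, while arrays 1 and 3 gave 0.26 and 0.997. If the deposited ratios instead follow the dyes, the difference between orientations given below would carry the caspofungin effect and the mean would not. A ratio in a culture of cells compares shares of total RNA, so fewer cells with a transcript and less of it per cell cannot be told apart. The medians over the 2925 genes with 4 values were -0.057 and -0.072 on arrays 2 and 4, while arrays 1 and 3 gave -0.10 and -0.22, so the zero of each array is not that of the other arrays. MID2 had no value on any array, like 1806 genes of the table, so it does not check the genotype. Of 6 markers of the MATa mating type of this strain, 5 had 4 values, and of 4 MATalpha markers 0 had. Among the latter, MF(ALPHA)2 had 3 values and SAG1 had 1, and LEU2, disrupted in the strain background, had 4. These counts therefore do not check the mating type. Which arrays belong to the same culture is not in the labels, so both possible pairings of opposite dyes were fitted and the larger p was kept. The p-values rest on the spread between 2 pairs of arrays taken as cultures, and limma also draws on the spread of the other genes. The pairing kept for a gene may not be that of the real cultures.

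The large subunit genes had mean ratios of caspofungin over untreated RNA close to 0. None of the 55 passed the test, with a lowest adjusted p of 0.184 (0 of 55 members, limma on culture means, Benjamini-Hochberg over 2925 genes, threshold 0.05), while 0.0342% of all genes tested, a single gene, passed. At an unadjusted p under 0.05 there were 3 members with negative means, RPL22B, RPL23B and RPL7A, and 0 with positive means, beside 18.5% and 6.84% of all genes. That split depended on the setting. Without arrays 1, 2, 3 and 4 it was 1, 0, 2 and 0 negative, with 0 positive each time. It was 11 negative and 0 positive with a dye term, 6 and 0 with arrays 1 and 2, and 3 and 4, paired, 0 and 1 with arrays centred, and 1 and 3 with arrays scaled. The mean log2 ratios ran from -0.31 to 0.23 around a median of -0.11, close to the median of -0.13 over all genes. No member reached a 2-fold ratio on any array (0 of 55), against 13.5% of all genes, and 207 of the 220 single ratios lay within 0.5 of 0. The SD between genes was 0.13 for the members' means and 0.33 for all genes.

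A lean toward negative ratios was shared with the table as a whole. The mean was negative in 41 of 55 members (74.5%), beside 73.0% of all genes. All 4 ratios were negative in 20 members (36.4%), beside 19.3% of all genes, and all 4 were positive in 0 members, beside 6.87%. These counts follow the zero of the arrays. With each array centred on its median, 5 members were negative on all 4 arrays and 5 were positive, beside 8.72% and 10.97% of all genes. The members on the negative side were then RPL6A, RPL6B, RPL22B, RPL25 and RPL27A, and those on the positive side were RPP0, RPP1A, RPP1B, RPL2A and RPL24B.

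**Figure D1:**
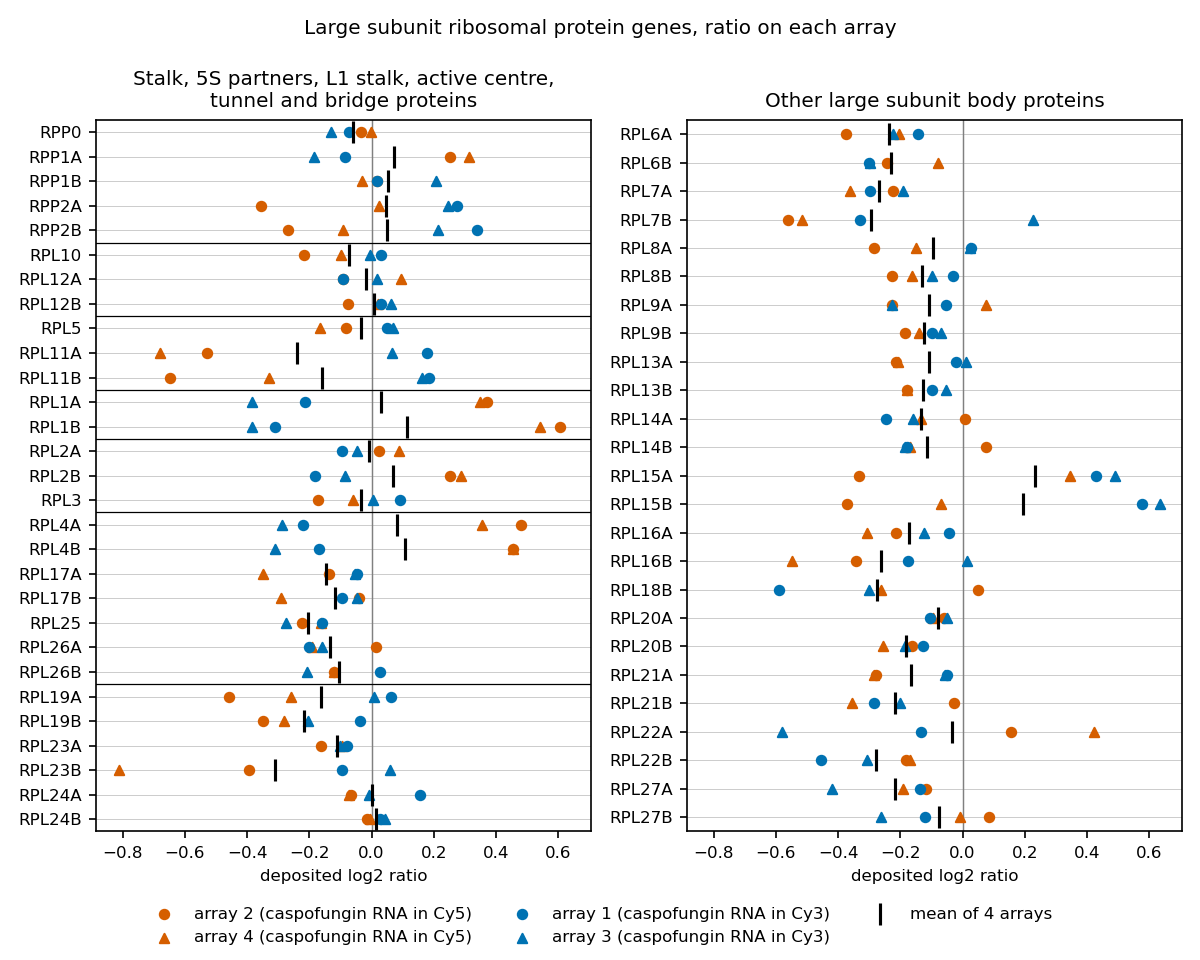
Deposited log2 ratio (x axis) of 54 of the 55 genes (rows, by role) on arrays 2 and 4, with caspofungin RNA in Cy5, and on arrays 1 and 3, with it in Cy3, with the mean of the 4 arrays as a black bar. The means stay between -0.31 and 0.23, while genes such as RPL1B, RPL4B, RPL11A and RPL15B spread by dye orientation.

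The 5 stalk genes had means near 0. RPP0 (YLR340W), the anchor on which the P1 and P2 proteins sit, had ratios of -0.034 and -0.00029 on arrays 2 and 4, while arrays 1 and 3 gave -0.072 and -0.13, with a mean of -0.059 ± 0.056 (SD, n = 4 arrays). Its 4 values lay close together and slightly below 0, and above 0 once arrays were centred (mean 0.054). RPP1A (YDL081C), one of the copies for P1, had 0.25 and 0.31 on arrays 2 and 4, while arrays 1 and 3 gave -0.086 and -0.19. RPP1B (YDL130W), the other P1 copy, had 0.017 and -0.030 on arrays 2 and 4, while arrays 1 and 3 gave 0.019 and 0.21. Thus RPP1A alternated in sign with the dyes, with arrays 2 and 4 higher, as they also were for RPP0 within its narrow span. RPP1B had a single value away from 0, on array 3. Its arrays 2 and 4 lay below arrays 1 and 3, but with 0.017 on array 2 against 0.019 on array 1. Of the P2 genes, RPP2A (YOL039W) had -0.35 and 0.025 on arrays 2 and 4, while arrays 1 and 3 gave 0.28 and 0.25. RPP2B (YDR382W) had -0.27 and -0.091 on arrays 2 and 4, while arrays 1 and 3 gave 0.34 and 0.21. Both P2 genes were lower on arrays 2 and 4 without overlap, opposite to RPP1A. The means were 0.074 ± 0.25 for RPP1A, 0.054 ± 0.11 for RPP1B, 0.048 ± 0.29 for RPP2A and 0.049 ± 0.28 for RPP2B (SD, n = 4). Among the 5 stalk genes the lowest adjusted p was that of RPP1A, 0.629 (limma).

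At the base of the stalk, RPL12A and RPL12B, which encode the protein beneath RPP0, were close to 0 on every array. RPL12A had -0.092 and 0.095 on arrays 2 and 4, while arrays 1 and 3 gave -0.091 and 0.019, and RPL12B stayed between -0.075 and 0.061. RPL10 (YLR075W), a single-copy gene for a protein that joins the subunit at a late step of its maturation, had -0.22 and -0.098 on arrays 2 and 4, while arrays 1 and 3 gave 0.029 and -0.0056 (mean -0.073 ± 0.11, SD, n = 4). Its values on arrays 2 and 4 lay below those on arrays 1 and 3.

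The partners of 5S ribosomal RNA, RPL5 and RPL11, were lower on arrays 2 and 4 in all 3 genes, like 47.3% of the members and 27.8% of all genes. RPL11A and RPL11B are copies that may share signal, and this group was formed after the values were seen. RPL11A (YPR102C) had -0.53 and -0.68 on arrays 2 and 4, while arrays 1 and 3 gave 0.18 and 0.067. RPL11B (YGR085C) had -0.65 and -0.33 on arrays 2 and 4, while arrays 1 and 3 gave 0.18 and 0.16. The sign of both copies thus followed the dye of the caspofungin RNA, and their means were -0.24 ± 0.43 and -0.16 ± 0.40 (SD, n = 4; limma, adjusted p = 0.200 and 0.347). The mean of RPL11A lay between -0.38 (without array 1) and -0.094 (without array 4) when 1 array was left out, and was -0.14 without array 2. RPL5, the single-copy partner that enters the subunit with RPL11 and 5S RNA, kept the same order of arrays at a smaller size, with -0.081 and -0.17 on arrays 2 and 4, while arrays 1 and 3 gave 0.050 and 0.068 (mean -0.032 ± 0.11).

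RPL1A and RPL1B (YGL135W), which encode the protein of the L1 stalk beside the exit site of transfer RNA, had the opposite pattern. RPL1B had 0.61 and 0.54 on arrays 2 and 4, while arrays 1 and 3 gave -0.31 and -0.38, the widest spread by orientation among the 55 genes. RPL1A (YPL220W) had 0.37 and 0.35 on arrays 2 and 4, while arrays 1 and 3 gave -0.21 and -0.39. The mean was 0.11 ± 0.53 for RPL1B and 0.031 ± 0.39 for RPL1A (SD, n = 4), so the SD of the arrays exceeded the mean in both. Near the active centre, RPL2B had 0.25 and 0.29 on arrays 2 and 4, while arrays 1 and 3 gave -0.18 and -0.087, and RPL2A followed it within a smaller span, from -0.093 to 0.087. RPL3 (YOR063W), a single-copy gene for a protein that reaches toward the peptidyl transferase centre, had -0.17 and -0.059 on arrays 2 and 4, while arrays 1 and 3 gave 0.091 and 0.0043 (mean -0.034 ± 0.11).

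Genes for proteins of the exit tunnel fell into separate patterns. RPL4A, whose protein lines the tunnel, had 0.48 and 0.36 on arrays 2 and 4, while arrays 1 and 3 gave -0.22 and -0.29. RPL4B (YDR012W) had 0.45 and 0.45 on arrays 2 and 4, while arrays 1 and 3 gave -0.17 and -0.31, with a mean of 0.11 ± 0.40. Both copies alternated in sign with the dyes. RPL25 (YOL127W), a single-copy gene for a protein at the mouth of the tunnel, where the signal recognition particle binds, did not: it had -0.22 and -0.16 on arrays 2 and 4, while arrays 1 and 3 gave -0.16 and -0.27, negative throughout. Its mean was -0.21 ± 0.054 (SD, n = 4), and it did not pass (limma, adjusted p = 0.246). RPL17A and RPL17B had means of -0.15 and -0.12 with 4 negative ratios each, and RPL26A and RPL26B -0.14 and -0.11 with 3.

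Of the genes for proteins that bridge to the small subunit, RPL23B (YER117W) had the lowest mean of all 55 as deposited. Turned by the dye labels it had -0.29, while RPL15B had -0.41 and RPL11A -0.36. Its ratios were -0.39 and -0.81 on arrays 2 and 4, while arrays 1 and 3 gave -0.094 and 0.061, with a mean of -0.31 ± 0.38 (SD, n = 4; limma, unadjusted p = 0.0383, adjusted p = 0.188). The value on array 4 was the farthest from 0 of any member on any array, and without it the mean was -0.14. RPL23A, the other copy, had -0.16 and -0.094 on arrays 2 and 4, while arrays 1 and 3 gave -0.079 and -0.10, a mean of -0.11 ± 0.037. RPL19A and RPL19B, of another bridge protein, had means of -0.16 and -0.22, and RPL24A and RPL24B, whose protein joins the subunit late, 0.0021 and 0.013.

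The remaining 26 genes encode proteins of the body of the subunit. The highest means of the 55 as deposited were those of RPL15A and RPL15B, which encode a protein embedded in ribosomal RNA that joins the precursor early. Turned by the dye labels, both were negative, at -0.23 and -0.41, while RPL1B had 0.46 and RPL4B 0.35. RPL15A (YLR029C) had -0.33 and 0.35 on arrays 2 and 4, while arrays 1 and 3 gave 0.43 and 0.49, with a mean of 0.23 ± 0.38. RPL15B (YMR121C) had -0.37 and -0.068 on arrays 2 and 4, while arrays 1 and 3 gave 0.58 and 0.63, with a mean of 0.19 ± 0.49 (SD, n = 4; limma, adjusted p = 0.311 for RPL15A and 0.267 for RPL15B). Array 2 was negative and arrays 1 and 3 were positive in both copies, and array 4 differed between them. With 1 array left out, the mean of RPL15A lay between 0.15 (without array 3) and 0.42 (without array 2), and that of RPL15B between 0.046 (without array 3) and 0.38 (without array 2), with 0.065 without array 1. Among the lowest means, RPL7B (YPL198W) had -0.56 and -0.51 on arrays 2 and 4, while arrays 1 and 3 gave -0.33 and 0.23, a mean of -0.29 ± 0.36, and of -0.47 without array 3. RPL22B (YFL035C-B) had -0.18 and -0.17 on arrays 2 and 4, while arrays 1 and 3 gave -0.45 and -0.31, a mean of -0.28 ± 0.13 with 4 negative ratios and the lowest p of the members (limma, unadjusted p = 0.0326, adjusted p = 0.184). RPL18B (YNL301C) had 0.051 and -0.26 on arrays 2 and 4, while arrays 1 and 3 gave -0.59 and -0.30, a mean of -0.28 ± 0.26, and of -0.17 without array 1. RPL22B thus kept 1 sign, while RPL7B and RPL18B each had 1 array of the other sign. RPL7A, named for its unadjusted p after its values were seen, was evenly negative, with -0.22 and -0.36 on arrays 2 and 4, while arrays 1 and 3 gave -0.30 and -0.19 (mean -0.27 ± 0.077, n = 4; limma, unadjusted p = 0.0397, adjusted p = 0.189). Of these 26 genes, grouped after the values were seen, 24 (92.3%) had a negative mean, beside 73.0% of all genes, and 14 (53.8%) were negative on all 4 arrays, beside 19.3%. With arrays centred, those of the 26 negative on every array were RPL6A, RPL6B, RPL22B and RPL27A, beside 8.72% of all genes.

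The means of the other body genes lay between those of RPL7A and RPL15B, while single ratios reached -0.58 at RPL22A and -0.55 at RPL16B. RPL22A, the copy of RPL22B, had 0.16 and 0.42 on arrays 2 and 4, while arrays 1 and 3 gave -0.13 and -0.58, and its mean was -0.034 ± 0.43 (SD, n = 4). It alternated in sign with the dyes, while RPL22B did not. RPL6A had -0.37 and -0.20 on arrays 2 and 4, while arrays 1 and 3 gave -0.14 and -0.22, and RPL6B had -0.24 and -0.078 on arrays 2 and 4, while arrays 1 and 3 gave -0.30 and -0.30. RPL16B had -0.34 and -0.55 on arrays 2 and 4, while arrays 1 and 3 gave -0.18 and 0.013, a mean of -0.26 ± 0.24. All 8 ratios of the RPL6 copies were negative, and so were those of RPL20A, RPL20B, RPL21A and RPL21B, whose means were -0.078, -0.18, -0.17 and -0.22. RPL13A and RPL13B had means of -0.11 and -0.13, RPL9A and RPL9B of -0.11 and -0.12, RPL8A and RPL8B of -0.096 and -0.13, and RPL14A and RPL14B of -0.13 and -0.11. RPL16A had a mean of -0.17, with 4 negative ratios.

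The ratios of many members differed by dye orientation. The difference between orientations, divided by 2, was larger than the mean ratio in 24 members (43.6%), beside 53.7% of all genes. The mean of arrays 2 and 4 less that of arrays 1 and 3 had an SD of 0.35 between members, against 0.65 between all genes, and ran from 0.92 at RPL1B to -0.83 at RPL15B. It was 0.69 at RPL4B and -0.73 at RPL11A. In 0 members did this difference pass over all genes, where 0.0% of genes passed (limma on culture means; the lowest adjusted p among the members was 0.0763, at RPL1B). At an unadjusted p under 0.05 it did in 9 members (16.4%), beside 32.3% of all genes. Of these, 5 were higher on arrays 2 and 4, beside 20.5% of all genes, and 4 were lower, beside 11.8%. With arrays 1 and 2, and 3 and 4, taken as the cultures, RPL1B and RPL15B passed (limma, adjusted p = 0.0386 and 0.0491), as did 485 of the 2925 genes (16.6%), and 0 members did with arrays 1 and 4, and 2 and 3.

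Arrays 2 and 4 both lay above arrays 1 and 3 in 15 members (27.3%), beside 41.0% of all genes, and both below in 26 (47.3%), beside 27.8%. The sign itself alternated in 17 members: in 8 of them arrays 2 and 4 were positive while arrays 1 and 3 were negative, beside 19.7% of all genes, and in 9 it was the other way round, beside 13.4%. Across the 55 members, Pearson's r between arrays of the same orientation was 0.71 for arrays 2 and 4 and 0.75 for arrays 1 and 3. Over all genes these values were 0.79 and 0.65. Between arrays of opposite orientation Pearson's r ran from -0.55 to 0.040 in the members, and over all genes from -0.15 to 0.14. Spearman's rho between arrays of opposite orientation ran from -0.50 to 0.090 in the members, and over all genes from -0.33 to -0.12. These are correlations across genes that share the same arrays and are given as a description. HIS3 and LEU2, disrupted in the strain background, also alternated with the dyes, with 0.40 and 0.39 for HIS3 on arrays 2 and 4, while arrays 1 and 3 gave -0.63 and -0.64. What part the dyes have in the members' ratios was not tested beyond this swap.

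**Figure D2:**
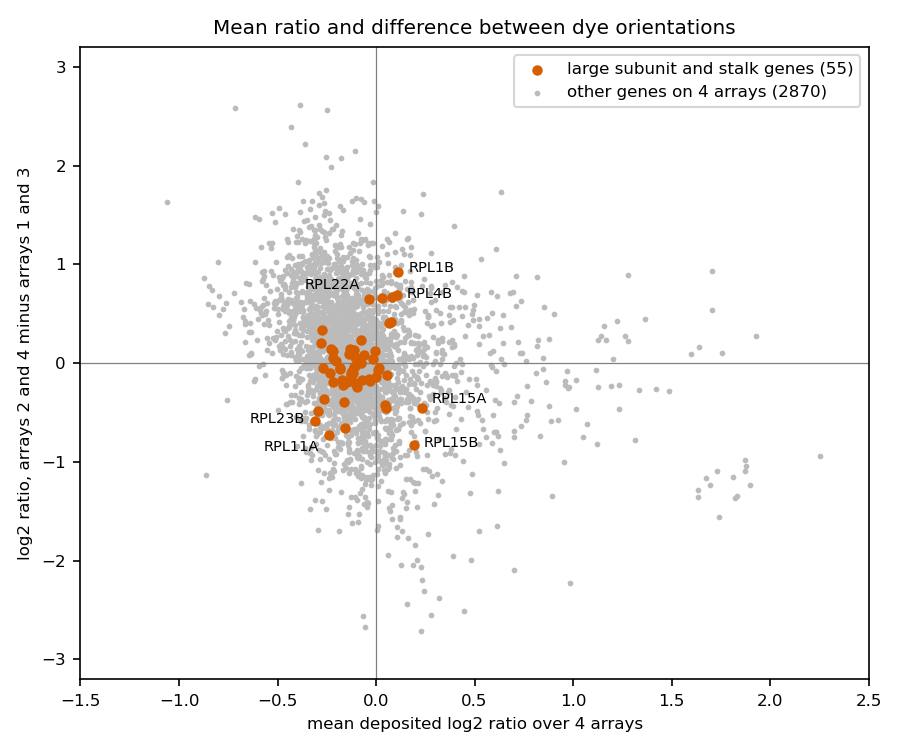
Mean deposited log2 ratio over 4 arrays (x axis) against the log2 ratio of arrays 2 and 4 minus that of arrays 1 and 3 (y axis) for the 55 large subunit and stalk genes and the other 2870 genes with 4 values. The members span a mean of -0.31 to 0.23 and an orientation difference of -0.83 to 0.92. Outside the axes lie 5 genes, 0 of them members.

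The copies of a pair had similar ratios. Means differed by less than 0.1 in 21 of 25 pairs, the median size of the difference was 0.034, and the means had the same sign in 23 pairs. Across the 25 pairs the mean of the A copy and that of the B copy correlated at Pearson's r = 0.81 (0.73 without the 2 pairs farthest from the median of the A copies; Spearman's rho 0.72 over all pairs). The orientation differences correlated at r = 0.75 (0.60 without the 2 farthest pairs; Spearman's rho 0.69). These are correlations across genes and are given as a description. The copies of a pair share the same arrays and the same hybridisations. Their sequence identity was not computed, and it need not be high in every pair. What the spots on the array consist of is not given in the sources used here, and signal shared between near-identical copies was not tested, so a difference within a pair may be understated.

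Both copies lay higher on arrays 2 and 4 than on arrays 1 and 3 in 5 pairs, RPL1, RPL2, RPL4, RPL14 and RPL22, and both lower in 8, RPP2, RPL8, RPL11, RPL13, RPL15, RPL16, RPL19 and RPL24. Among these were RPL4A and RPL4B, with orientation differences of 0.67 and 0.69, and RPL11A and RPL11B, with -0.73 and -0.66. RPP1A and RPP1B were the stalk pair that did not match, with 0.42 and -0.12.

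The order of the copies was the same on all 4 arrays in 2 of 25 pairs. It was so in 1 of 21 small subunit pairs and in 0 of 8 pairs from RPL28 to RPL43. Signs drawn at random would agree on 4 arrays with a probability of 0.125 per pair, a share that these counts do not exceed. The 2 pairs are therefore given as a description. RPL27A minus RPL27B was -0.20 and -0.18 on arrays 2 and 4, while arrays 1 and 3 gave -0.018 and -0.16, with means of -0.22 and -0.076 and a difference of -0.14 ± 0.084 (A minus B, SD, n = 4). RPL20A minus RPL20B was 0.10 and 0.16 on arrays 2 and 4, while arrays 1 and 3 gave 0.021 and 0.13, with means of -0.078 and -0.18 and a difference of 0.10 ± 0.061. Both are differences of log2 ratios, not of levels. With 4 arrays an exact two-sided sign-flip permutation test cannot give a p below 0.125, and the differences within pairs were not tested with limma. Larger mean differences came with disagreeing arrays. RPL22A exceeded RPL22B by 0.24 ± 0.37, with 0.34 and 0.59 on arrays 2 and 4, while arrays 1 and 3 gave 0.32 and -0.27. RPL23A exceeded RPL23B by 0.20 ± 0.38, of which array 4 gave 0.72. These 2 pairs were named after their values were seen. In 23 of 25 pairs the SD over arrays was larger than the mean difference.

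**Figure D3:**
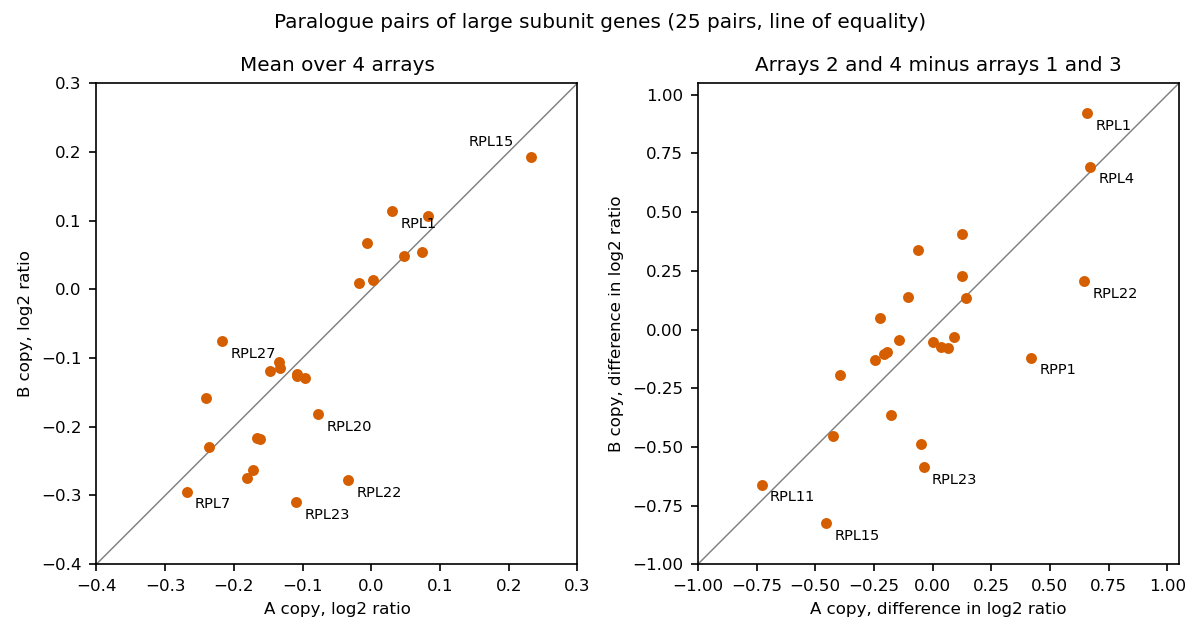
The A copy (x axis) against the B copy (y axis) of each of the 25 pairs, as the mean log2 ratio over 4 arrays (left) and as the log2 ratio of arrays 2 and 4 minus that of arrays 1 and 3 (right), with the line of equality. Pairs lie along the line in both panels (r = 0.81 and 0.75), and RPL22 and RPL23 lie off it on the left.

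A member's neighbour on the chromosome is in some cases another ribosomal protein gene. RPL13A lies next to RPP1A, and their mean ratios were -0.11 and 0.074, with orientation differences of -0.21 and 0.42. RPL18B lies next to RPS19B, with means of -0.28 and -0.30 and orientation differences of 0.34 and 0.097. Of 7 such neighbour pairs measured, the orientation difference had opposite signs in 5 and the mean in 3. These 2 were named after their values were seen.

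Set beside related gene groups, the large subunit genes had a median close to those of the rest of the cytoplasmic ribosome, while signs and ranges differed. The median of the means was -0.11 for the 55 members, -0.11 for 23 measured genes from RPL28 to RPL43 and -0.12 for 53 small subunit genes. It was -0.14 for 40 factors of 60S assembly and -0.26 for 20 mitochondrial large subunit genes. A negative mean was found in 74.5% of the members, 95.7% of the genes from RPL28 to RPL43 and 96.2% of the small subunit genes. The highest means in these groups were 0.23, 0.051 and 0.098. On arrays 2 and 4 the members' medians were -0.16 and -0.14, and on arrays 1 and 3 they were -0.093 and -0.087. The genes from RPL28 to RPL43 had medians of -0.15 and -0.33 on arrays 2 and 4, while arrays 1 and 3 gave -0.020 and -0.0098. The assembly factors had medians of -0.56 and -0.21 on arrays 2 and 4, while arrays 1 and 3 gave 0.11 and 0.038, a wider swing with the dyes. Pearson's r between the means of the copies was 0.81 over the members' pairs. Over 21 small subunit pairs it was 0.082 (0.31 without the 2 farthest), although all 21 had means of the same sign. Over 8 pairs from RPL28 to RPL43 it was 0.14 (0.56 without the 2 farthest). The median size of the difference between copies was 0.034 in the members, 0.052 in the small subunit and 0.087 from RPL28 to RPL43. Since r also depends on how widely the means spread, it does not measure the closeness of copies alone. The orientation differences of the copies correlated at 0.75 in the members, 0.71 in the pairs from RPL28 to RPL43 and 0.50 in the small subunit. Without the 2 farthest pairs of each group these were 0.60, 0.21 and 0.33. The SD between genes was 0.13 for the members' means, against 0.084 for small subunit genes and 0.083 for RPL28 to RPL43. No test was made of any of these differences between groups.

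**Figure D4:**
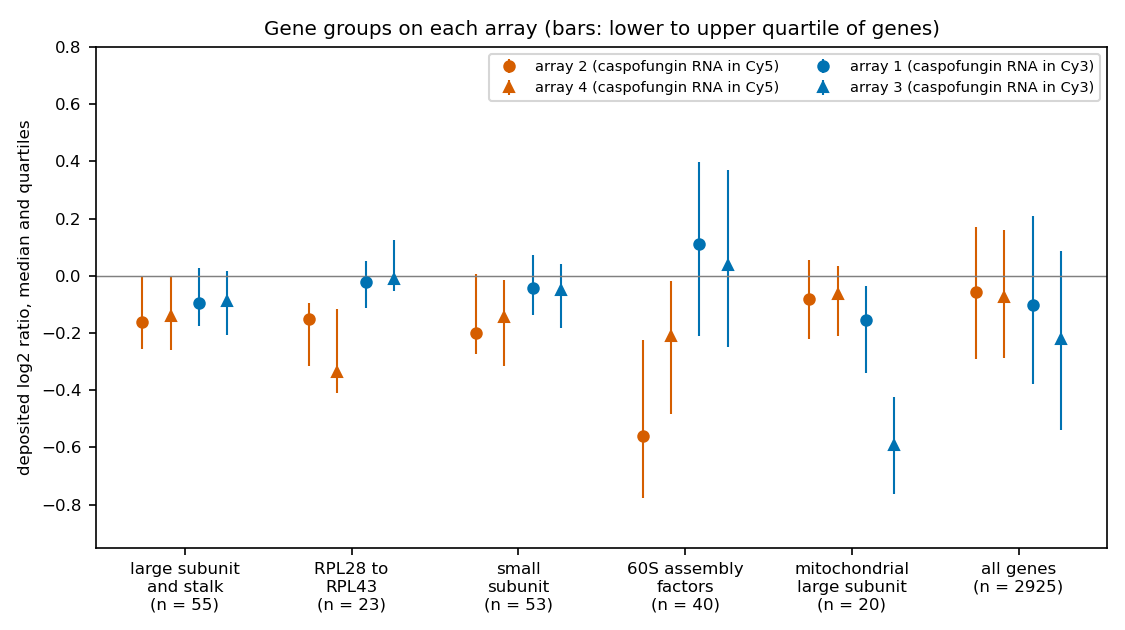
Median deposited log2 ratio with the lower and upper quartile of genes (y axis) on arrays 2, 4, 1 and 3 for the members, the related gene groups and all 2925 genes. The members' medians lie between -0.16 and -0.087, with a small step between dye orientations, while the 60S assembly factors span -0.56 to 0.11.

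Genes that act on the large subunit proteins did not pass the test either. MRT4, which encodes a stand-in for RPP0 in the precursor subunit, had -0.71 and -0.58 on arrays 2 and 4, while arrays 1 and 3 gave -0.11 and -0.069. YVH1, for the phosphatase that releases Mrt4, had -0.28 and -0.29 on arrays 2 and 4, while arrays 1 and 3 gave -0.27 and -0.21. Both were negative on all 4 arrays, like 19.3% of all genes, with means of -0.37 ± 0.33 and -0.26 ± 0.036 (SD, n = 4; limma, adjusted p = 0.166 and 0.189). On array 3 both lay above the median of all genes, -0.22, so their shared sign follows the zero of the arrays. Of 5 dedicated chaperones 4 were measured on all arrays and 0 passed. SYO1, which carries the RPL5 and RPL11 proteins, had a mean of -0.36 ± 0.24, BCP1, which serves RPL23, -0.30 ± 0.18, SQT1, which serves RPL10, -0.24 ± 0.11, and RRB1, which serves RPL3, -0.19 ± 0.57. ACL4, for RPL4, was blank. The first 3 were negative on all 4 arrays, like 19.3% of all genes, and RRB1 was positive on array 1. BCP1, with -0.15 on array 3, lay above the median of all genes there. SYO1 and SQT1 lay below that median on every array.

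Of 9 regulators of ribosomal protein genes 3 had 4 values. IFH1, the coactivator, had -0.85 and -0.28 on arrays 2 and 4, while arrays 1 and 3 gave -0.16 and -0.24, a mean of -0.38 ± 0.31. CRF1, a corepressor that competes with it, had 0.073 ± 0.52, and TOR1, a kinase gene upstream, 0.40 ± 0.60 (SD, n = 4; limma, adjusted p = 0.174, 0.727 and 0.279). FHL1 had 3 values, all negative, SCH9 had 2, and RAP1, SFP1, HMO1 and TOR2 had 0. Of the regulators measured on all arrays, IFH1 was the one with a single sign.

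Among the elongation factors that the stalk engages, the copies for eEF2 had positive ratios on all 4 arrays. EFT1 had 0.58 and 0.84 on arrays 2 and 4, while arrays 1 and 3 gave 0.23 and 0.44, a mean of 0.52 ± 0.26 (SD, n = 4), and it did not pass (limma, adjusted p = 0.163). EFT2 had a mean of 0.42 ± 0.17 and YEF3, for elongation factor 3, of 0.35 ± 0.28, while TEF1 and TEF2, the copies for eEF1A, had -0.057 ± 0.21 and -0.044 ± 0.040. EFT2, YEF3 and TEF2 were named after their values were seen. EFT1 and EFT2 are near-identical, so their values are not separate evidence. EFT1 passed with arrays 1 and 4, and 2 and 3, taken as the cultures (limma, adjusted p = 0.0464), a fit that called 148 of the 2925 genes (5.06%). Over the 40 measured 60S assembly factors 0 passed, with NIP7 lowest at -0.43 ± 0.24 and SPB1 highest at 0.32 ± 0.83. An unadjusted p under 0.05 was found in 8 of them with a negative mean, or 20% beside 18.5% of all genes, and in 0 with a positive one, beside 6.84%.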

How the data were processed

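The authors deposited 1 log2 ratio per gene and array for 4 2-colour DNA arrays, and per the labels the dyes were swapped between hybridisations of each of 2 cultures. That the base is 2 was found from how the values round. The software, background correction, normalization, the rule for blank cells and the build used are steps not given in the sources used here; centring, scale and direction stay unknown. The table lists 6207 genes, of which 3215, 4346, 3228 and 3538 had a value on arrays 1 to 4. Names came from RefSeq (assembly R64): 5654 matched by systematic name and 21 through an older name. No coordinates are given, because the build is not named.

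Each gene with 4 values (2925) was tested against 0 in R 4.3.3 by limma 3.58.1, using the mean of each of 2 cultures. Both pairings of arrays that join opposite dye orientations were fitted, and Benjamini-Hochberg adjustment used, per gene, the larger p. The same test of the dye orientation used the ratios turned by the dye labels. The scripts were tested on simulated data. The number of arrays limits the precision.

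The members and lists were chosen with earlier results of these data known. Named are the stalk genes, the 4 highest and 4 lowest means, up to 6 pairs with 1 order on all arrays, the 4 largest orientation differences, the single-copy genes, and the genes of the small pathway lists. Roles were assigned after the values were seen, as was the row for RPL22B. Alternatives were each pairing, a dye term, centring, scaling, genes on at least 3 arrays, turned ratios and leaving out each array. The single values of 1 member are not reported here; it stays in the counts and medians.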

Additional observations from a re-analysis of the deposited data

Results flagged for a closer look

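Of the 55 members, 1 had an array far from the other 3. RPL14B had a log2 ratio of 0.075 on array 2, while its other 3 ratios lay between -0.19 and -0.17. Chance flags about 1 in 20 groups of this size, so a single case among 55 is below that rate.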

How the results depend on the processing

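Besides the fit reported, no member passed the test (0 of 55) under either pairing, with a dye term, with arrays centred or scaled, with genes on at least 3 arrays, with values turned by the dye labels, without each array in turn or without RPL22B. Of all genes, 0.0342% passed with arrays 1 and 2, and 3 and 4, paired, 5.06% with arrays 1 and 4, and 2 and 3, paired, 3.73% with a dye term, 0.342% centred, 1.64% scaled, 0% on at least 3 arrays, 0% turned, and 0.0342% to 2.09% without 1 array. The count of members past the dye test was 2 with arrays 1 and 2, and 3 and 4, paired, where 16.6% of all genes passed. Members negative on all arrays, 20 as deposited, were 5 with arrays centred, 5 scaled and 9 turned by the dye labels, and 21 to 25 without an array. Members positive on all arrays, 0 as deposited, were 5 centred, 5 scaled and 8 turned, and 0 to 3 without an array. Pairs with 1 order on all arrays, 2 as deposited, were 6 turned and 3 to 6 without an array, where fewer arrays have to match. In the pathway lists EFT1 passed (1 gene) with arrays 1 and 4, and 2 and 3, paired and with a dye term, the settings with 5.06% and 3.73% of all genes.

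Signs of means changed. Centring and scaling turned small means, and turning by the dye labels also those far from 0. Centring gave means of 0.054 for RPP0, 0.037 for RPL27B, 0.035 for RPL20A, 0.079 for RPL3, 0.080 for RPL5 and 0.040 for RPL10, and scaling 0.053, 0.047, 0.027, 0.061, 0.059 and 0.021. Turned by the dye labels, where a mean carries the dye difference by construction, RPP0 had 0.042, RPP1B -0.060, RPP2A -0.21, RPP2B -0.23, RPL15A -0.23, RPL15B -0.41, RPL22B 0.10, RPL18B 0.17, RPL27A 0.062, RPL27B 0.11, RPL20A 0.00027 and RPL25 0.012. Without 1 array, which leaves the dyes unbalanced, the mean ran between -0.0057 (without array 4) and 0.16 for RPP1A, -0.028 (without array 1; -0.018 without array 3) and 0.18 for RPP2A, -0.048 (without array 1; -0.0063 without array 3) and 0.15 for RPP2B, -0.051 (without array 2; -0.029 without array 4) and 0.28 for RPL1B, -0.0085 (without array 4; -0.0083 without array 2) and 0.25 for RPL4B, -0.075 and 0.012 (without array 2) for RPL3, and -0.066 and 0.012 (without array 4) for RPL5.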
